A study of Rattus norvegicus with 6 samples.

Results

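Sugars, amino acids, lactate and related small solutes cross the plasma membrane on carrier proteins of the solute carrier (Slc) families, and the carriers considered here are the transcripts annotated to the families Slc1a, Slc2a, Slc3a, Slc5a, Slc6a, Slc7a, Slc16a, Slc36a, Slc38a and Slc43a. The members were taken by gene symbol alone: every probe set with exactly 1 annotated symbol of these families, without Slc2a4, the insulin-regulated glucose transporter. That gave 101 probe sets of 75 genes, out of 31042 probe sets and 14217 genes on the array. For each gene the probe set with the brightest mean signal stood for the gene, and 19 of the 75 genes had several probe sets.

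The tissue was fat from beside the pancreas, a visceral depot, of 6 Wistar rats, an outbred strain. The lean group was 3 rats on standard chow (lean 14, 18 and 19), and the obese group was 3 rats kept for 30 days on an energy-rich cafeteria diet (obese 29, 32 and 42). The labels give no sex, age or body weight and name no transgene or drug, and each array holds the tissue RNA of 1 rat. The labels describe every array but obese 42 as a repeat analysis of an earlier deposited sample.

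The Slc2a carriers move hexoses down their gradient, while the Slc5a carriers use the sodium gradient to take up sugars, inositol, vitamins, choline or iodide. Lactate, pyruvate and ketone bodies leave and enter cells through the Slc16a monocarboxylate carriers, and fat cells are known to release lactate. Amino acids use several overlapping systems, among them the light chains of the Slc7a family, which reach the membrane paired with a heavy chain, Slc3a1 or Slc3a2. In fat, Slc7a10 and Slc36a2 are known as surface proteins of adipocytes, and Slc7a7 is prominent in macrophages.

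All values are log2 expression after the RMA method, with array medians of 5.63 to 5.68 and lower quartiles of 4.41 to 4.49. Adipocyte markers gave list means of 11.47 to 12.03, well above the array medians. All 13 measured adipocyte markers, 9 islet markers and 4 erythroid markers had higher means on the obese arrays. The islet list means were only 4.45 to 4.67, near the lower quartiles and below the array medians. All 14 macrophage, 8 B cell and 10 endothelial markers and 15 of 16 T and NK cell markers had lower means there. The list mean of pancreatic acinar markers was 8.02 on lean 14 against 4.57 to 4.88 elsewhere, though Cela3b lay at 8.42 to 9.33 on 4 other arrays and Cpa1 at 8.14 on obese 32. Smooth muscle and pericyte markers were highest on lean 19 (9.83), and B cell markers lowest on obese 32 (5.44 against 6.13 to 6.87). Control transcripts read 0.79 to 1.28 log2 units brighter at their 3' than at their 5' end, a sign of RNA quality, with the highest value on obese 42. In bulk tissue, fewer cells of a type and less RNA per cell cannot be told apart.

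Which of these carriers does peripancreatic fat express at another level after the cafeteria diet? Obese rats were set against lean rats to answer this. None of the 75 carriers passed limma's test at an adjusted p under 0.05 over all genes, where 0.00703% of genes did, and their smallest adjusted p was 0.176. The differences of largest size ran from 1.90-fold to 2.16-fold and concerned a carrier of inositol (Slc2a13, higher), a carrier of small neutral amino acids (Slc7a10, higher) and the choline carrier Slc5a7 (lower). The facilitated hexose carriers other than Slc2a4 lay within 0.064 log2 units of no difference. At an unadjusted p under 0.05 by limma, 7 carriers (9.33%) were higher and 6 (8%) lower, against 7.23% and 6.18% of all genes. The lean and obese values did not overlap for 12 carriers (16%) that were higher and 7 (9.33%) that were lower, against 12.2% and 8.18% of all genes. The shares of the carriers lay near those of the array as a whole. With each array centred on its median, 9 carriers were higher and 5 lower at that unadjusted p by limma, and over all genes the split moved from 1028 higher and 879 lower to 1288 and 707. The median difference was 0.057 over the carriers and 0.016 over all genes, and the median size without regard to sign was 0.15 and 0.12.

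The counts at an unadjusted p under 0.05 moved with single arrays. Without lean 14 there were 3 higher and 3 lower carriers, where 4.16% and 3.86% of all genes were higher and lower. Without lean 19 there were 2 lower carriers (5.56% of all genes), and without obese 42 there were 10 (7.59% of all genes). The count of carriers whose groups did not overlap was 19, 31 without lean 19 and 29 without obese 29, where fewer arrays make an overlap less likely. Over all genes the share without overlap was 20.4%, 32.5% and 32.7% in the same order.

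**Figure D1:**
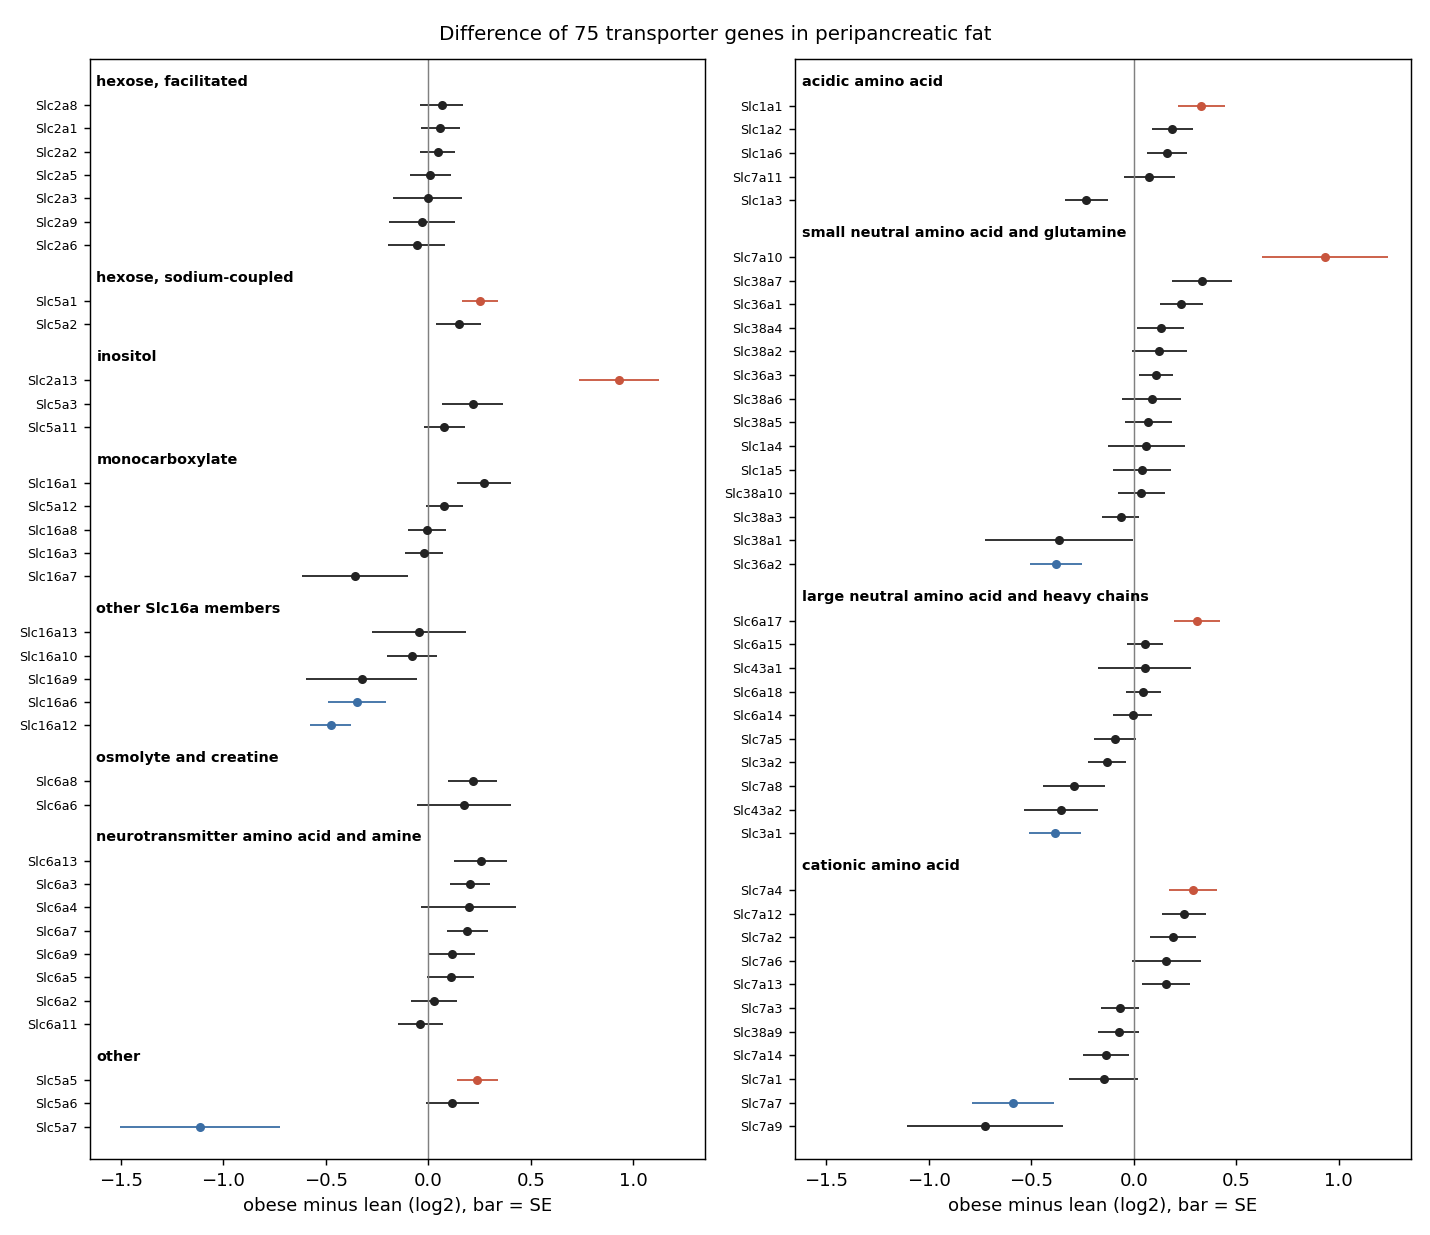
Obese minus lean difference of each of the 75 carriers on the log2 scale (horizontal axis), ordered by substrate, with the standard error as a bar. Carriers with an unadjusted p under 0.05 are red where higher and blue where lower. Slc2a13 and Slc7a10 lie farthest to the right at 0.93 each, and Slc5a7 farthest to the left at -1.11.

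The start regions of 4 of the carriers with these differences are shown because 2 of them, Slc2a13 and Slc7a10, had the largest higher values, while of the other 2, both lower, Slc16a12 had the smallest adjusted p and Slc7a7 is the one known from macrophages. Each window runs from 250 bases before to 50 bases after the gene's start, from RefSeq on the GRCr8 rat assembly, written 5' to 3' along the gene. Capitals mark matches to 4 short motifs searched on both strands. CACGTG is an E-box, bound by factors such as MYC and ChREBP. TGATGNAA is the core of the amino acid response element bound by ATF4. AGGTCA is a nuclear receptor core site, and TTGCNNAA is a C/EBP-type pattern.
Slc2a13, chr7:124606097-124606396, minus strand: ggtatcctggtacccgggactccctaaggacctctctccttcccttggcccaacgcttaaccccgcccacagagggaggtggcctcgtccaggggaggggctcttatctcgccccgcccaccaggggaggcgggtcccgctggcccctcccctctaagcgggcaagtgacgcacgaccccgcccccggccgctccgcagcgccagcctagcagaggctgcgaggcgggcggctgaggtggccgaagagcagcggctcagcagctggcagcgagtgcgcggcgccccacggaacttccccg
Slc7a10, chr1:96965872-96966171, plus strand: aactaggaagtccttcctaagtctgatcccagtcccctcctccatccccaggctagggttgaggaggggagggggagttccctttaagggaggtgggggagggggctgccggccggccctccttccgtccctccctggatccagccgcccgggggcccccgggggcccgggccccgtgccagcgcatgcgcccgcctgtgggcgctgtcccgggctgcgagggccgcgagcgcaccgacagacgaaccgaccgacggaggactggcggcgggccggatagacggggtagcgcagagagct
Slc16a12, chr1:241621667-241621966, minus strand: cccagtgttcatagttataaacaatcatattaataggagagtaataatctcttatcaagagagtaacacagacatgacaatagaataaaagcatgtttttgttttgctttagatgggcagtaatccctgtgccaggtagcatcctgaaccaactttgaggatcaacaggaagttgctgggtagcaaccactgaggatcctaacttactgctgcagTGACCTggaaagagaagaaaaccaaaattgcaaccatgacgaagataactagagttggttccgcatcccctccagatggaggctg
Slc7a7, chr15:31835634-31835933, minus strand: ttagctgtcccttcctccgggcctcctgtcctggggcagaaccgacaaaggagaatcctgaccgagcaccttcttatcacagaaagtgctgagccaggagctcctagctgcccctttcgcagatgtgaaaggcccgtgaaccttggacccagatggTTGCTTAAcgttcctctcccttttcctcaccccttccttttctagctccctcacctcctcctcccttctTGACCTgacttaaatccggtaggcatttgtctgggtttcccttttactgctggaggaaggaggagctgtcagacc

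RefSeq windows were matched for 58 of the 75 carriers. The windows of Slc2a13 and Slc7a10 held none of the 4 motifs and had a GC content of 72.0% and 72.3%. The window of Slc16a12 (41.7% GC) held 1 match to AGGTCA, read on the other strand, and that of Slc7a7 (54.7% GC) held 1 match each to AGGTCA and TTGCNNAA. CACGTG stood in 10 of 58 carrier windows (17.2%), against 6.65% of 27457 windows of all genes. Those 10 were Slc16a1, Slc1a4, Slc1a6, Slc36a1, Slc38a7, Slc43a1, Slc5a1, Slc5a6, Slc7a5 and Slc7a14, of which Slc5a1 had an unadjusted p under 0.05. TGATGNAA stood in 3 carrier windows (5.17%, against 3.82% of all), those of Slc1a4, Slc38a1 and Slc7a1. AGGTCA stood in 17.2% of carrier windows (15.7% of all) and TTGCNNAA in 6.9% (10.5% of all). The median GC content was 57.6% over the carrier windows and 52.3% over all windows. These are matches of letters in a short window and were not tested.

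Among the inositol carriers, Slc2a13, which brings myo-inositol into cells together with protons, was higher on the obese arrays. Lean 14, 18 and 19 gave 8.31, 7.82 and 8.12, and obese 29, 32 and 42 gave 9.22, 9.20 and 8.62. All obese arrays lay above all lean arrays, with obese 42 the lowest of the obese. The means were 8.09 ± 0.25 (SD, n = 3) and 9.01 ± 0.34 (SD, n = 3), a difference of 0.93 (SE 0.20), or 1.90-fold, with an adjusted p of 0.177 by limma. Its other, dimmer probe set gave the same picture, with 5.77 to 5.88 in lean rats and 6.43 to 6.79 in obese rats, a difference of 0.84 (SE 0.11). Tested among all probe sets, that second set had an adjusted p of 0.146 by limma. Without any 1 array the difference of Slc2a13 stayed between 0.80 and 1.13.

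The other inositol carriers showed smaller differences. Slc5a3, the sodium-coupled myo-inositol carrier that cells raise under osmotic stress, ranged from 6.79 to 7.31 in lean rats and from 7.10 to 7.37 in obese rats, and the groups overlapped. Its difference was 0.22 (SE 0.15, adjusted p = 0.554 by limma). Slc5a11, a related carrier, had a dim probe set below the lower quartile of every array, with a difference of 0.078.

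Facilitated hexose carriers were the group with the smallest differences. All 7 overlapped between lean and obese rats, where 20.4% of all genes did not overlap. Of the 7, 4 lay above and 3 below no difference, and the median was 0.0082. Slc2a1, which serves basal glucose entry in most cells, ranged from 6.34 to 6.43 in lean rats and from 6.30 to 6.55 in obese rats. The 95% interval of its difference ran from -0.17 to 0.28. Slc2a8, a carrier of intracellular membranes, lay at 6.57 to 6.70 and 6.54 to 6.85, with an interval of -0.18 to 0.31.

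Slc2a3, a high-affinity carrier of neurons and blood cells, lay at 7.41 to 7.85 and 7.29 to 7.84, with an interval of -0.40 to 0.39. Its sign turned with the scaling of the arrays, so no direction is given, and its dimmer probe set differed by -0.42 (SE 0.19, with overlapping groups). For Slc2a9, which carries urate, the interval was -0.41 to 0.35. The fructose carrier Slc2a5 differed by 0.0082 (SE 0.10) on a probe set below the median of every array. Over the group the intervals reached from -0.41 to 0.39, or from 1.33-fold lower to 1.31-fold higher, so differences below that size could lie within them. Slc2a2, the carrier of liver and islet cells, lay below the lower quartile on all 6 arrays.

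The sodium-coupled sugar carriers are proteins of gut and kidney, and their probe sets lay near or below the array medians. Slc5a1 lay at 4.45, 4.60 and 4.50 on lean 14, 18 and 19 and at 4.85, 4.71 and 4.74 on obese 29, 32 and 42. These groups did not overlap, but all 6 values lay below the array medians. The difference was 0.25 (SE 0.088, adjusted p = 0.315 by limma). Slc5a2 differed by 0.15 (SE 0.11) with overlapping groups.

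Slc2a4 itself is outside the carriers counted here. With the other genes of glucose entry, of which 10 of 11 were measured, it is given for comparison: it ranged from 8.98 to 9.61 in lean rats and from 8.98 to 9.43 in obese rats (difference -0.22, SE 0.20). In that list 1 gene (10.0%) was higher at an unadjusted p under 0.05 by limma and 0 were lower. Over all genes the shares were 7.23% and 6.18%. The higher gene was Trarg1, a regulator of Slc2a4 traffic, at 11.02 to 11.29 and 11.51 to 11.62 (difference 0.40, SE 0.10, adjusted p = 0.217). Tbc1d4, which holds Slc2a4 vesicles back, differed by -0.20 (SE 0.084) and the glucose-responsive factor Mlxipl by -0.58 (SE 0.27), or -0.36 without obese 29.

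**Figure D2:**
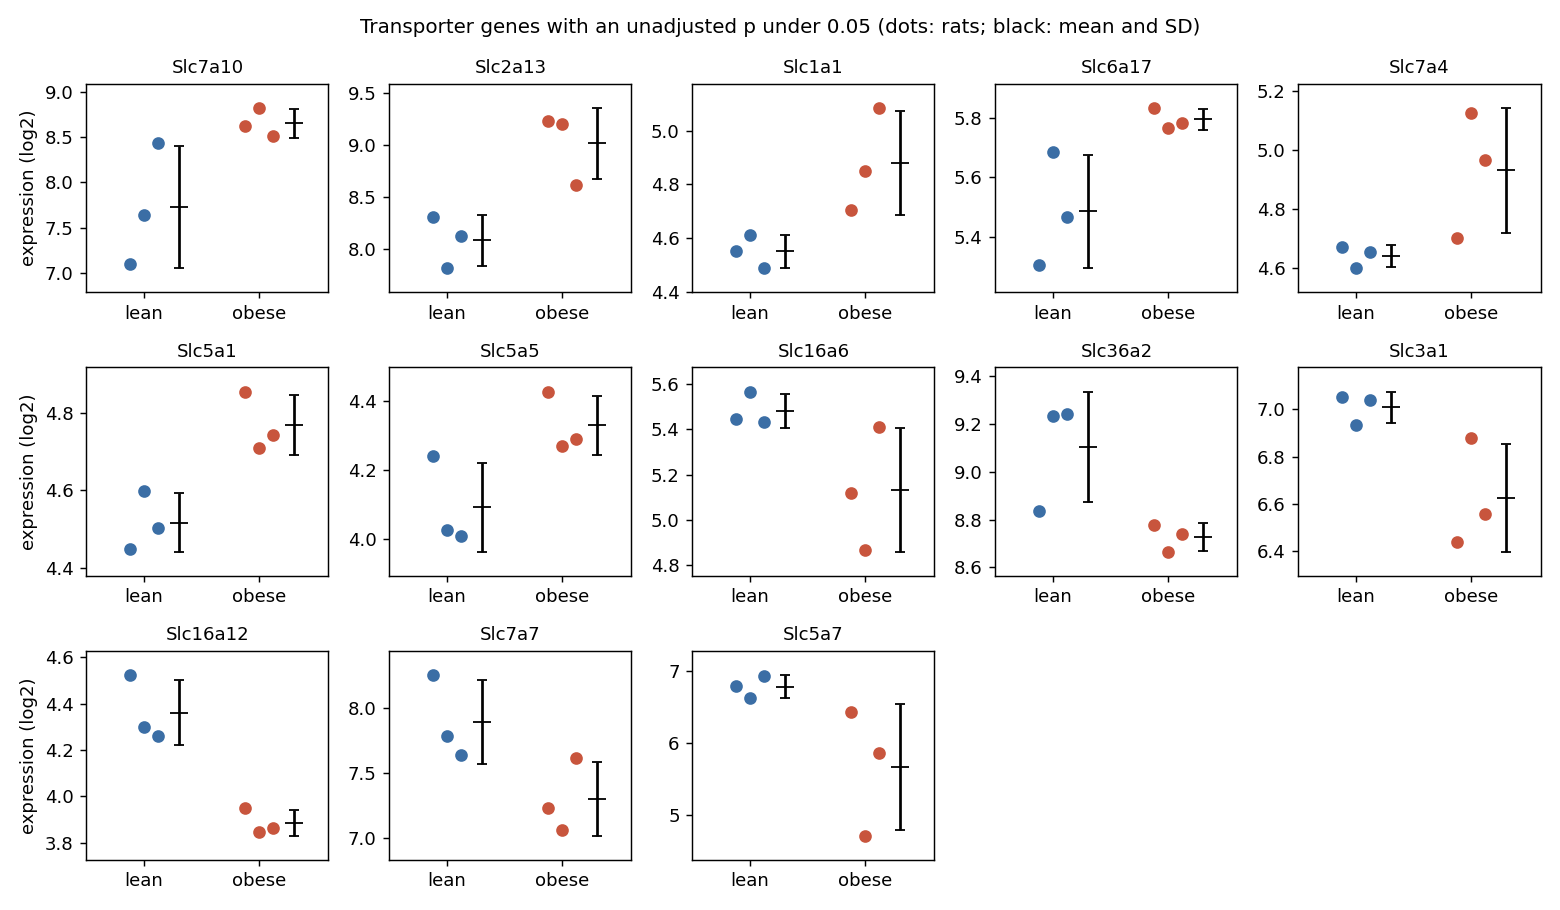
Log2 expression (vertical axis, a scale of its own in each panel) on 3 lean (blue) and 3 obese (red) arrays for the 13 carriers with an unadjusted p under 0.05, with the mean and SD of each group in black. In all 13 panels the lean and obese dots do not overlap, though Slc7a7 on lean 19 (7.63) and obese 42 (7.61) nearly meet. The 13 were chosen by that p on these same values, and such a choice favours groups that lie apart.

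Among monocarboxylate carriers, Slc16a1, the widespread lactate and ketone body carrier, lay at 9.66, 9.57 and 9.67 on lean 14, 18 and 19. On obese 29, 32 and 42 it lay at 10.20, 9.75 and 9.77. All obese values were above all lean values, and obese 29 stood highest. The difference was 0.27 (SE 0.13, adjusted p = 0.425 by limma), and 0.13 without obese 29. Its dimmer probe set, which lay near the lower quartile, differed by -0.083.

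Slc16a7, a high-affinity pyruvate carrier, lay at 6.33 to 6.73 on the lean arrays and at 6.45, 6.40 and 5.51 on obese 29, 32 and 42. The low value was on obese 42 alone, and the difference of -0.36 (SE 0.26) was -0.053 without that array. The lactate exporter Slc16a3 lay at 5.42 to 5.63 and 5.41 to 5.53, below the array medians, with a difference of -0.022 (SE 0.093). The retinal carrier Slc16a8 and the sodium-coupled Slc5a12 lay below the lower quartile on all 6 arrays. In all, 0 of the 5 carriers placed in the monocarboxylate group had an unadjusted p under 0.05 by limma, against 13.4% of all genes. Slc16a6, placed with the other Slc16a members below, did have one, so this count depends on the grouping.

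Of 10 measured genes that work with lactate, 0 were higher and 1 (10.0%) was lower at an unadjusted p under 0.05 by limma. Over all genes the shares were 7.23% and 6.18%. The lower one was Emb, a chaperone that brings monocarboxylate carriers to the membrane, with 6.62 to 6.68 in lean rats and 6.22 to 6.51 in obese rats (difference -0.25, SE 0.10, adjusted p = 0.365). Without obese 42 its difference was -0.16. Ldha and Ldhb, the lactate dehydrogenase subunits, differed by 0.22 (SE 0.099) and 0.21 (SE 0.12). Bsg, the main partner of Slc16a1, differed by -0.018 (SE 0.15).

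The 5 other Slc16a members, which carry creatine, carnitine or aromatic amino acids or have a less settled substrate, all lay below no difference, with a median of -0.33. That median was -0.17 without obese 29 and -0.19 without lean 19. Slc16a12, a creatine carrier, had the smallest adjusted p of all the carriers (0.176 by limma). It lay at 4.52, 4.30 and 4.26 on lean 14, 18 and 19 and at 3.95, 3.85 and 3.86 on obese 29, 32 and 42. The difference was -0.48 (SE 0.099) and the groups did not overlap, but 5 of the 6 values lay below the lower quartile of their array. A second, likewise dim probe set differed by -0.12 (SE 0.11) with overlapping groups.

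Slc16a6 lay at 5.45, 5.57 and 5.43 on the lean and at 5.12, 4.87 and 5.41 on the obese arrays. Obese 42 lay next to the lean values, and the difference was -0.35 (SE 0.14, adjusted p = 0.365 by limma) and -0.22 without obese 32. Its second probe set differed by -0.35 (SE 0.20). Slc16a9, a carnitine carrier, spread widely, at 5.58 to 6.12 on the lean arrays and at 5.22, 6.16 and 5.20 on obese 29, 32 and 42. For Slc16a13 the 2 groups overlapped (5.17 to 5.53 and 5.05 to 5.87), and its sign turned without lean 18, obese 29 or obese 32.

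Small neutral amino acid and glutamine carriers numbered 14, of which 11 lay above and 3 below no difference, with a median of 0.079. Slc7a10, which exchanges serine, glycine, alanine and cysteine and marks white adipocytes, lay at 7.10 on lean 14, 7.64 on lean 18 and 8.44 on lean 19. On obese 29, 32 and 42 it lay at 8.63, 8.83 and 8.51. The lean rats spread over 1.34 log2 units, against the 0.073 that separated lean 19 from obese 42. The means were 7.73 ± 0.67 (SD, n = 3) and 8.66 ± 0.16 (SD, n = 3), a difference of 0.93 (SE 0.31), or 1.91-fold, with an adjusted p of 0.300 by limma.

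Lean 14, where Slc7a10 was lowest, was the array with the highest acinar list mean, and without it the difference was 0.62. Adipocyte markers moved with Slc7a10. Their list mean was 11.47, 11.65 and 11.73 on lean 14, 18 and 19 and 11.86, 12.03 and 11.91 on obese 29, 32 and 42, so Slc7a10 and the list ran in the same order across all 6 arrays except obese 29 and obese 42. The part of adipocyte content in the difference was not tested. Adipoq, which adipocytes secrete, and Plin1, of their lipid droplets, lay at 12.42 or more and 11.32 or more on every array.

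Slc36a2, a proton-coupled carrier of glycine, alanine and proline and likewise an adipocyte surface protein, differed in the opposite direction. It lay at 8.84, 9.23 and 9.24 on lean 14, 18 and 19 and at 8.78, 8.67 and 8.74 on obese 29, 32 and 42. Lean 14 lay close above the obese values, the groups did not overlap, and the difference was -0.38 (SE 0.13, adjusted p = 0.305 by limma). Its relative Slc36a1, of lysosomes, differed by 0.23 (SE 0.11) with overlapping groups.

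Glutamine carriers showed smaller differences. Slc1a5, which takes up glutamine in exchange for other neutral amino acids, ranged from 10.43 to 10.88 in lean rats and from 10.54 to 10.86 in obese rats (difference 0.041, SE 0.14). Its sign turned without lean 14 or without obese 32. Slc38a2, the amino acid-regulated carrier of the System A type, lay at 9.23 to 9.60 and 9.42 to 9.72 (difference 0.13, SE 0.13). Slc38a1, of the same type, spread over 1.01 log2 units among the lean and 1.26 among the obese rats, with its lowest value on obese 32. Its 3 probe sets all lay below no difference, at -0.36, -0.28 and -0.19. None of the 9 Slc38a genes had an unadjusted p under 0.05 by limma or groups that did not overlap. Over all genes 13.4% had such a p and 20.4% had groups apart. At that first share 1.21 of 9 genes would have such a p.

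Large neutral amino acid carriers and the heavy chains numbered 10, of which 4 lay above and 6 below no difference. Slc3a1, the heavy chain that pairs with Slc7a9 to take up cystine and cationic amino acids, lay at 7.05, 6.93 and 7.04 on lean 14, 18 and 19. It lay at 6.44, 6.88 and 6.56 on obese 29, 32 and 42. Obese 32 lay close to the lean values, the groups did not overlap, and the difference was -0.39 (SE 0.13, adjusted p = 0.300 by limma). Its light chain Slc7a9, named here after its values were seen, lay at 6.30 to 6.87 on the lean arrays and at 6.17, 4.92 and 6.48 on obese 29, 32 and 42. The groups overlapped for Slc7a9, with a difference of -0.72 (SE 0.38) and of -0.26 without obese 32, and the low value was on obese 32, the obese array with the highest Slc3a1.

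The common heavy chain Slc3a2 ranged from 9.76 to 9.86 in lean rats and from 9.62 to 9.82 in obese rats (difference -0.13, SE 0.092). Of its partners, Slc7a5, the carrier of leucine and other large neutral amino acids, lay below the array medians at 5.09 to 5.28 and 4.96 to 5.20 (difference -0.090, SE 0.10). Slc7a8 differed by -0.29 (SE 0.15) and Slc43a2 by -0.35 (SE 0.18), both with overlapping groups. The difference of Slc43a2 was -0.17 without obese 32 and -0.54 without obese 29. For Slc43a1, a carrier of branched-chain amino acids, the groups overlapped at 8.20 to 8.81 and 8.09 to 8.82, and the sign turned without lean 14, lean 18 or obese 42.

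Slc6a17, a carrier of neuronal vesicles, differed by 0.31 (SE 0.11, adjusted p = 0.327 by limma), at 5.31, 5.69 and 5.47 on the lean and 5.83, 5.77 and 5.78 on the obese arrays. Its 5 probe sets disagreed, with differences of 0.31, 0.19, 0.059, -0.0062 and -1.13. The last of these was 6.26 on lean 19 and 3.27 to 4.43 elsewhere. The mean of the 5 lay at -0.12, so no direction is given for this gene.

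The group set up as cationic amino acid carriers numbered 11, with 5 above and 6 below no difference. Slc7a12 and Slc7a13 were counted in it, although they are not typical cationic carriers. They differed by 0.24 (SE 0.11) and 0.16 (SE 0.12), and both lay below the lower quartile on all 6 arrays. Slc7a7, which releases arginine and lysine in exchange for neutral amino acids, lay at 8.25, 7.79 and 7.63 on lean 14, 18 and 19 and at 7.23, 7.06 and 7.61 on obese 29, 32 and 42. The gap between lean 19 and obese 42 was 0.018. The means were 7.89 ± 0.32 (SD, n = 3) and 7.30 ± 0.28 (SD, n = 3), a difference of -0.59 (SE 0.20), with an adjusted p of 0.305 by limma. That difference ranged from -0.75 without obese 42 to -0.41 without lean 14, the array with the highest acinar list mean. With the acinar level as covariate it was -0.43.

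Macrophage markers were lower on the obese arrays as well, with a list mean of 10.30, 10.24 and 9.86 on lean 14, 18 and 19 and of 9.94, 9.59 and 8.99 on obese 29, 32 and 42. On obese 42 they were lowest, while Slc7a7 there was the highest of the obese arrays. Cd68 and Csf1r, which define macrophages, lay at 7.35 or more and 8.90 or more on every array. The part of macrophage content in the difference of Slc7a7 was not tested.

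Among the other cationic carriers, Slc7a1, the widespread arginine carrier, lay at 6.50 to 6.79 and 6.15 to 6.77 (difference -0.15, SE 0.17), and its 2 other probe sets disagreed in sign at 0.23 and -0.11. Slc7a6 lay at 7.29 to 7.78 and 7.50 to 7.98 (difference 0.16, SE 0.17). Slc7a4, an orphan relative, lay at 4.67, 4.60 and 4.65 on the lean and at 4.70, 5.13 and 4.97 on the obese arrays, below the medians of all of them. Its difference was 0.29 (SE 0.12, adjusted p = 0.365 by limma), and 0.19 without obese 32.

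**Figure D3:**
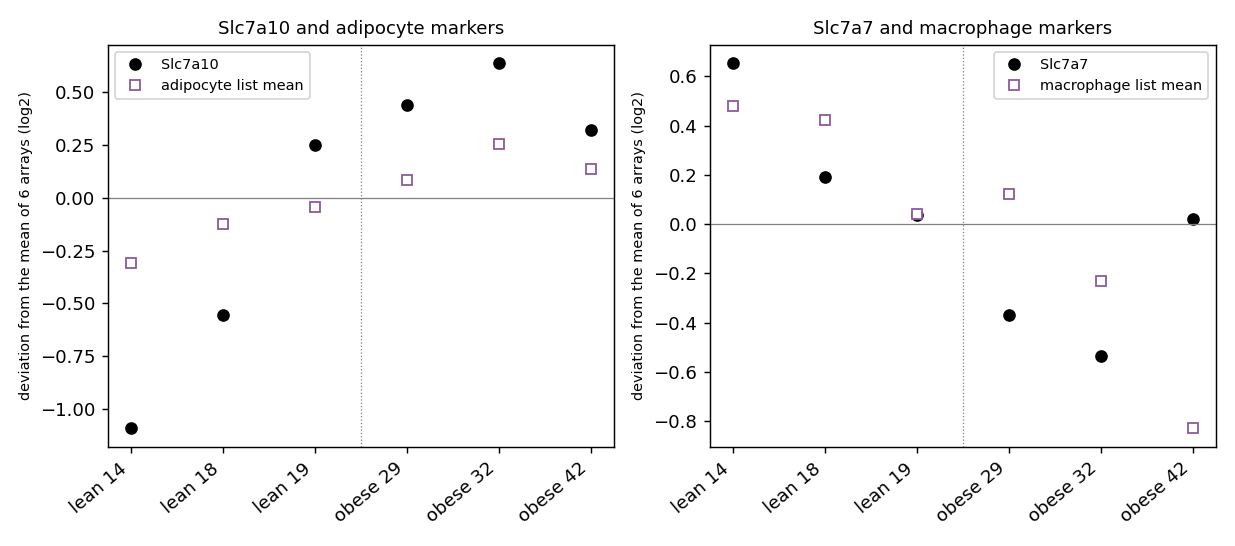
Deviation from the mean of the 6 arrays on the log2 scale (vertical axis) for Slc7a10 with the mean of 13 adipocyte markers (left) and for Slc7a7 with the mean of 14 macrophage markers (right), by array. Slc7a10 and the adipocyte mean are both lowest on lean 14, and on obese 42 the macrophage mean is lowest while Slc7a7 lies near its average.

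The group set up as acidic amino acid carriers numbered 5 and did not include Slc7a13. Slc1a3, which takes up glutamate and aspartate, lay at 10.52, 10.46 and 10.62 on lean 14, 18 and 19 and at 10.37, 10.13 and 10.41 on obese 29, 32 and 42. All obese values were below all lean values (difference -0.23, SE 0.11, adjusted p = 0.400 by limma). Without obese 32 the difference was -0.14. Of its other probe sets, one differed by -0.45 (SE 0.15) without overlap and the other by 0.25 (SE 0.20) with overlap.

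Slc1a1, the carrier of glutamate and cysteine, was dim, at 4.55, 4.61 and 4.49 on the lean and 4.70, 4.85 and 5.09 on the obese arrays, below the medians of all of them. The difference was 0.33 (SE 0.11, adjusted p = 0.315 by limma). Its second probe set differed by 0.32 (SE 0.13), also without overlap. The cystine carrier Slc7a11, which serves glutathione synthesis, lay below the lower quartile on all 6 arrays (difference 0.076, SE 0.12).

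Genes of the amino acid response, a program that ATF4 drives when amino acids are short and that includes several carriers among its known targets, were measured for 12 of 12. At an unadjusted p under 0.05 by limma 2 (16.7%) were higher and 1 (8.33%) was lower, against 7.23% and 6.18% of all genes. Atf5, a related factor, ranged from 9.27 to 9.99 in lean rats and from 10.15 to 10.49 in obese rats (difference 0.72, SE 0.19, adjusted p = 0.240). Eif2ak4, the kinase that senses uncharged tRNA, differed by -0.24 (SE 0.087) and Vldlr, the lipoprotein receptor, by 0.48 (SE 0.18), or 0.27 without obese 32. Atf4 and Asns differed by 0.10 (SE 0.11) and 0.11 (SE 0.13). Of 9 measured glutamine and glutamate enzymes, Gpt2 was higher (0.28, SE 0.081) and Got1 lower (-0.39, SE 0.16) at that unadjusted p, both aminotransferases. Each made up 11.1% of that list, beside the same 7.23% and 6.18% of all genes.

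The Slc6a carriers of taurine and creatine, Slc6a6 and Slc6a8, did not pass the unadjusted threshold by limma. Slc6a8, the creatine carrier, lay at 8.08, 8.41 and 8.48 on lean 14, 18 and 19 and at 8.56, 8.50 and 8.56 on obese 29, 32 and 42. The groups did not overlap, with lean 14 the lowest, and the difference was 0.22 (SE 0.12, adjusted p = 0.464 by limma) and 0.095 without lean 14. The taurine carrier Slc6a6 lay at 7.91 to 8.40 on the lean arrays and at 8.10, 8.09 and 8.87 on obese 29, 32 and 42, and its difference of 0.17 (SE 0.23) turned to -0.083 without obese 42.

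Of 11 measured creatine and taurine genes, 2 (18.2%) were higher and 0 lower at an unadjusted p under 0.05 by limma. Both make taurine from cysteine. Csad ranged from 10.75 to 11.08 in lean rats and from 11.26 to 11.46 in obese rats (difference 0.41, SE 0.11, adjusted p = 0.250). Cdo1 lay at 12.87 to 13.07 and 13.15 to 13.35 (difference 0.26, SE 0.097, adjusted p = 0.334). Over all 52 measured genes of these 5 lists, 6 (11.5%) were higher and 3 (5.77%) lower at that unadjusted p, against 7.23% and 6.18% of all genes.

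Neurotransmitter carriers numbered 8, of which 7 lay above no difference, with a median of 0.15. Of the 8, 0 had an unadjusted p under 0.05 by limma, against 13.4% of all genes. Slc6a4, the serotonin carrier, lay at 7.96, 8.07 and 7.87 on lean 14, 18 and 19. On obese 29, 32 and 42 it spread over 8.67, 7.66 and 8.17, on both sides of the lean values, and its sign turned without obese 29. The glycine carrier Slc6a9 lay at 6.68 to 6.82 and 6.68 to 7.02 (difference 0.12, SE 0.11). The other 6 lay below the array medians throughout.

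Of the remaining Slc5a members, Slc5a7, the high-affinity choline carrier of cholinergic nerve endings, had the largest difference of all the carriers. It lay at 6.79, 6.62 and 6.93 on lean 14, 18 and 19 and at 6.43, 4.71 and 5.87 on obese 29, 32 and 42. All obese values were below all lean values, but the obese rats spread over 1.72 log2 units and obese 29 lay close to lean 18. The means were 6.78 ± 0.16 (SD, n = 3) and 5.67 ± 0.88 (SD, n = 3), a difference of -1.11 (SE 0.39), or 2.16-fold, with an adjusted p of 0.315 by limma. Without obese 32 the difference was -0.63. Obese 32 also had the lowest level of Slc7a9 and the lowest list means of B cell, T and NK cell (5.01 against 5.26 to 5.94) and mesothelial markers (8.29 against 8.48 to 9.01). Its erythroid list mean was the highest (8.35 against 7.77 to 7.88). The part of these in the difference of Slc5a7 was not tested.

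Slc5a6, which carries biotin and pantothenate, lay at 7.94 to 8.23 and 7.96 to 8.31 (difference 0.12, SE 0.13). The iodide carrier Slc5a5 differed by 0.24 (SE 0.10, adjusted p = 0.369 by limma), at 4.24, 4.03 and 4.01 on the lean and 4.43, 4.27 and 4.29 on the obese arrays. Its values lay below the lower quartile on all 6 arrays.

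The brightness of the probe sets limits what can be read from them. Of the 75 carriers, 28 lay above the array median on all 6 arrays and 39 below it on all 6, of which 19 lay below the lower quartile on all 6. Of the 28, 2 were higher (Slc2a13 and Slc7a10) and 3 lower (Slc36a2, Slc3a1 and Slc7a7) at an unadjusted p under 0.05 by limma. Of the 39, 4 were higher and 2 lower. Both directions together made up 17.9% of the 28 and 15.4% of the 39, against 13.4% of all genes. The median size of the difference was 0.19 in the 28 and 0.090 in the 39. No detection call was used here, so a dim probe set does not show that a transcript is absent.

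Among the 19 carriers with several probe sets, the other probe sets numbered 26, of which 16 had the sign of the brightest one and 10 the opposite sign. All probe sets had 1 sign for 11 of the 19 genes. The differences of the paired probe sets of Slc2a13 and Slc1a1 lay close to each other, while those of Slc6a17 lay apart.

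**Figure D4:**
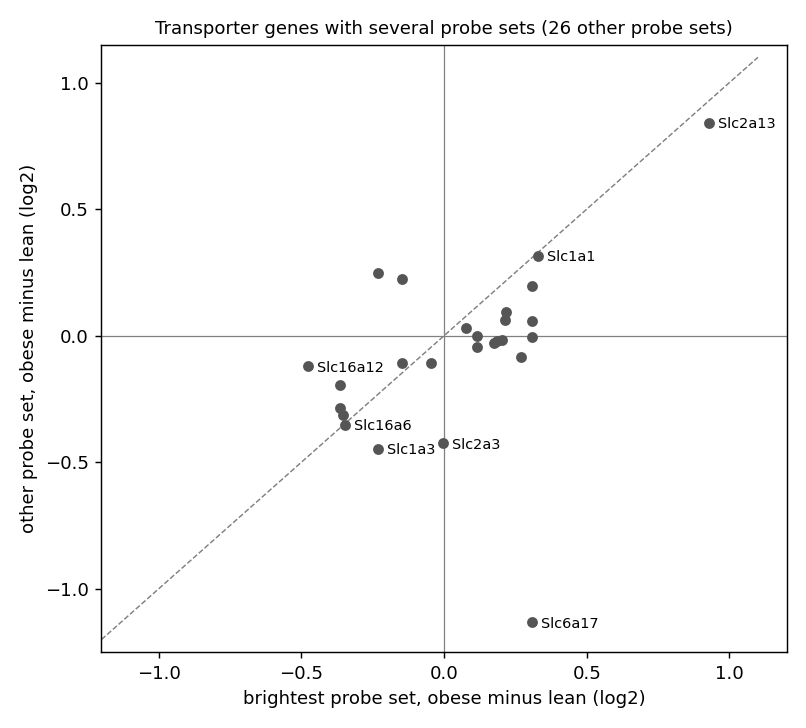
Obese minus lean difference (log2) of each other probe set (vertical axis) against that of the brightest probe set of the same gene (horizontal axis), for 26 probe sets of 19 carriers; the dashed line marks equal differences. Slc2a13 lies at the upper right with 0.93 and 0.84, and 1 probe set of Slc6a17 lies at 0.31 and -1.13.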

How the data were processed

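Each rat had 1 Affymetrix rat array. The deposited values are log2 expression per probe set, which the authors made by RMA in affy, per the submitters' processing notes. Their versions, the chip definition and the set of arrays normalized together were not given in the sources used here. RMA equalises the distribution of values across arrays, so a shift of most genes one way would not show.

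Of 31099 probe sets, 57 controls were left out, and the platform annotation gave 1 symbol for 20826, several for 436 and none for 9780. The brightest probe set by mean stood for each of 14217 genes. All 75 carriers matched the reference gene table by ID and symbol. The groups were compared by limma's two-sided moderated test (version 3.58.1, R 4.3.3; constant prior, group as the single term), with Benjamini-Hochberg adjustment across the 14217 genes and a call at 0.05. Differences subtract lean from obese, and 95% intervals rest on the moderated SE. With 3 arrays a group their number limits the precision, and p-values reflect the spread between individual rats. The test was also run on simulated data, and the outcome is not reported here.

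Members, substrate groups, pathway lists and cell type lists were chosen with earlier results of these data known. Named were carriers with an unadjusted p under 0.05 and the 2 brightest of each substrate group, and of each pathway list up to 3 genes with the smallest p. Other genes given with values were chosen after their values were seen. Alternatives were quantile normalization, median centring, a filter keeping genes above the median level, a mean over probe sets, all probe sets tested singly, an intensity trend with a robust prior, each array left out, lean 14 and obese 42 both left out, and the acinar mean as a covariate. Python 3.11.15, pandas 2.3.3 and matplotlib 3.10.9 made tables and plots.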

Additional observations from a re-analysis of the deposited data

How the results depend on the processing

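Under all alternatives run 0 carriers were called at an adjusted p under 0.05 by limma, also without obese 42, where 34 of 14217 genes were. At an unadjusted p under 0.05, the 7 higher carriers became 4 with the acinar level as covariate (4.54% of all genes, against 7.23%), 4 with lean 14 and obese 42 left out (5.84%), 2 among genes above the median level (6.87% of those), and 3 to 7 with each array left out (4.16% to 8.11%). The 6 lower ones became 3 among genes above the median level (7.05%, against 6.18%) and 2 to 10 with each array left out (3.86% to 7.59%). The 19 carriers whose groups did not overlap became 8 among genes above the median level, a filter that 23 of the 75 carriers passed. Of all genes that passed it, 20.6% did not overlap, against 20.4% without the filter. The count was 34 with lean 14 and obese 42 left out, where fewer arrays overlap less (46.0% of all genes, against 20.4%). It was 22 to 31 with each array left out (27.2% to 35.5%).

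Of 435 values of 32 named carriers under the alternatives, 23 had the opposite sign, in 9 carriers, and 1 of these was among the 13 with an unadjusted p under 0.05 (Slc6a17, -0.12 as the mean of its probe sets). With each array left out the ranges were -0.32 to 0.093 for Slc16a13, -0.067 to 0.15 for Slc1a5, -0.12 to 0.15 for Slc2a3, -0.017 to 0.14 for Slc2a8, -0.12 to 0.25 for Slc43a1, -0.053 to 0.45 for Slc6a4 and -0.083 to 0.31 for Slc6a6. With the acinar covariate Slc1a5 lay at -0.050 and Slc43a1 at -0.030. With lean 14 and obese 42 left out, Slc1a5 lay at -0.060, Slc2a8 at -0.045, Slc43a1 at -0.23, Slc6a6 at -0.22 and Slc7a6 at -0.10. Slc2a3 lay at 0.020 with median centring and 0.035 with quantile normalization. Where no reason is given, the cause was not tested. Median centring moved the median of all genes by 0.025 and quantile normalization by 0.0038. Of 166 values of the substrate groups' medians, 21 moved by more than the spread between rats. No paired analysis was possible because the groups share no replicate number.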
